A study of Mus musculus with 12 samples.

Results

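The genes described here are 9 components of insulin and glucagon signalling: the receptors Insr and Gcgr, the adaptors Irs1 and Irs2, the kinase subunit Pik3r1, the kinases Akt1 and Akt2, and the transcription factors Foxo1 and Foxo3. They were taken by symbol from a table of 23849 gene symbols, and all 9 were found and had a mean of at least 1 FPKM (a fragment count scaled to transcript length and library size), the minimum for testing that 9806 symbols met. The samples were livers of 12 male C57BL/6J mice, labelled as 8 weeks old, that were all fed a high-fat diet (HFD), a diet that makes mice obese and insulin resistant. Harvest time and treatment formed 4 groups of 3 mice: vehicle at ZT0 (Cntrl ZT0), vehicle at ZT12 (Cntrl ZT12), Libramed at ZT0 and Libramed at ZT12. Zeitgeber time (ZT) counts hours after lights on, so ZT0 is the end and ZT12 the start of the active phase. Libramed, or Policaptil Gel Retard, is a gel-forming fiber product that was given by gavage once a day just before lights off, for 2 weeks, and no group without HFD was sequenced. The comparisons ask whether these genes differed between evening and morning, and whether the product changed their level or their difference over the day.

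Insulin binds its receptor on the hepatocyte, which phosphorylates insulin receptor substrates. These recruit phosphoinositide 3-kinase, whose lipid product activates AKT, and AKT phosphorylates FOXO factors and keeps them out of the nucleus, so that genes of glucose production fall. Glucagon acts in the opposite direction through its own receptor and cAMP. All of these steps act on proteins, while the values below are mRNA levels.

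No library was left out. Their relative depth, estimated from the smallest steps of low values, spanned 1.80 times from the deepest to the shallowest, Libramed ZT12 replicate 2 at 0.703, and replicates of a group correlated across genes with r from 0.971 to 0.985. The time labels matched the clock genes in all 12 livers: Dbp, Per2 and Ciart were higher and Arntl, Nr1d1 and Npas2 lower at ZT12, with no overlap. Hepatocyte markers were abundant, as Ttr was between 6123 and 9230 FPKM, although Alb, the albumin gene, was listed at 0 in every liver. The pancreatic hormone genes Ins1, Ins2 and Gcg were listed at 0 in all livers. Muscle genes (Ckm, Acta1, Myh4) were at or near 0 except in Libramed ZT12 replicate 3, where they summed to 31.3 FPKM. Markers of endothelial cells were lower in the evening, with a sum between 23.3 and 38.2 FPKM at ZT0 and between 12.2 and 20.7 FPKM at ZT12.

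Because FPKM is scaled by transcript length, the genes could be ordered by level. The glucagon receptor was by far the most abundant, with a mean of 252 FPKM over the 12 livers, above 96.2% of the genes tested. Akt1 (20.6 FPKM) and Akt2 (17.6 FPKM) followed, then Insr (11.1), Pik3r1 (9.84), Foxo1 (6.40), Foxo3 (3.92), Irs1 (2.79) and Irs2 (1.43 FPKM). Gcgr exceeded Insr in level within each liver, and the ratio of Insr to Gcgr lay between 0.0318 and 0.0525. The order of neighbours held in all 12 livers for Gcgr over Akt1, Akt2 over Insr, Pik3r1 over Foxo1, Foxo1 over Foxo3 and Irs1 over Irs2. It did not hold for Akt1 over Akt2 (10 of 12 livers), Insr over Pik3r1 (9 of 12) and Foxo3 over Irs1 (8 of 12).

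**Figure D1:**
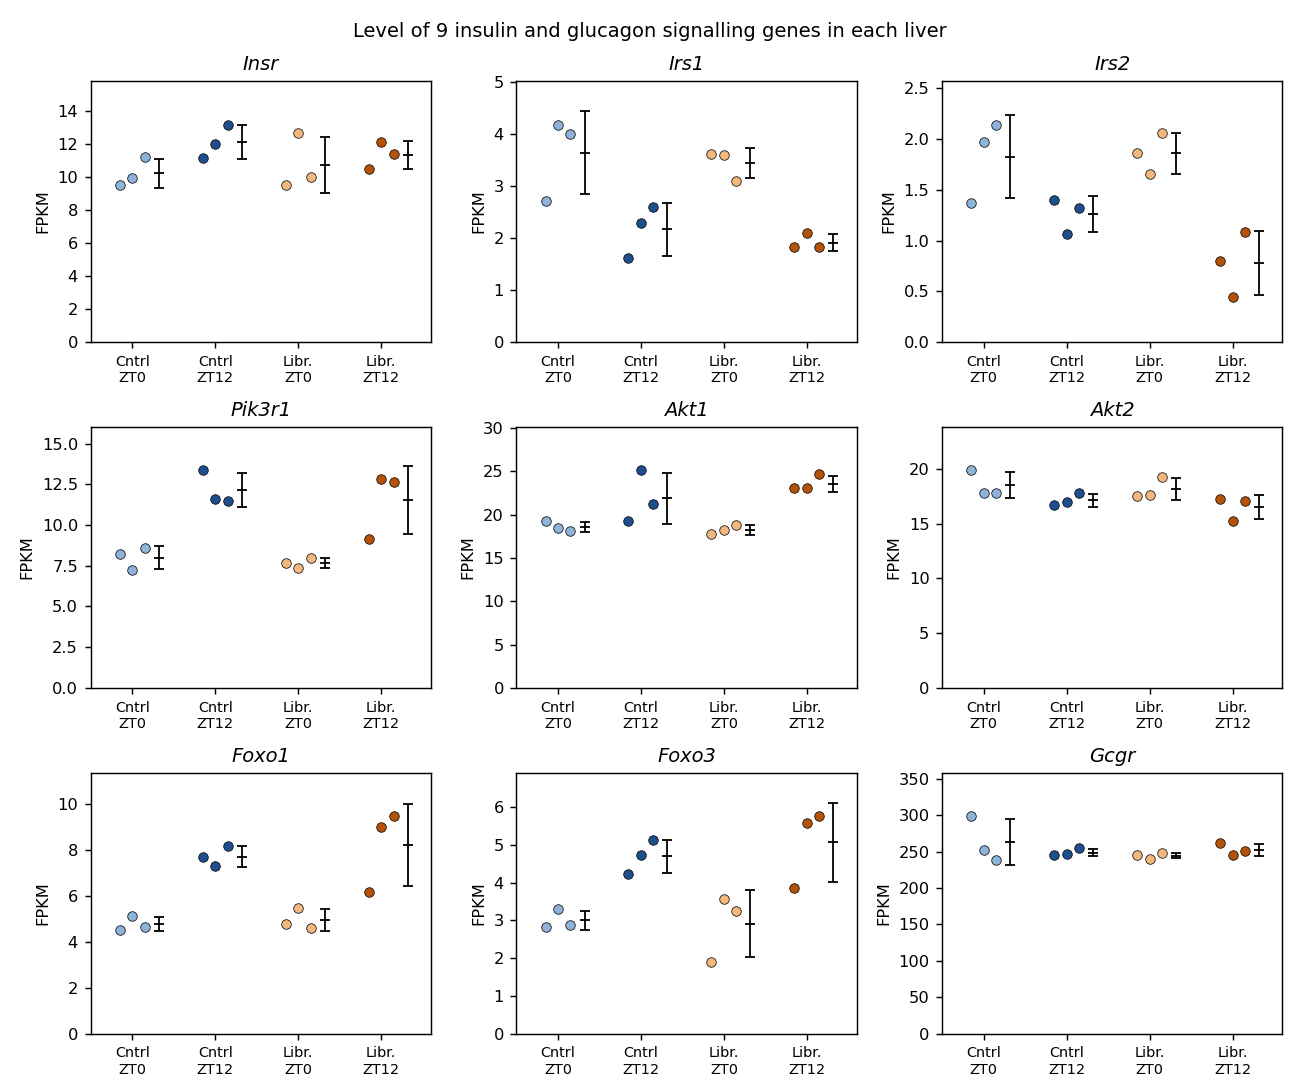
Level of each gene in FPKM (y axis, from 0) in each of the 12 livers, with 1 point per mouse and the mean ± SD of 3 mice beside each group. Pik3r1, Foxo1 and Foxo3 were higher and Irs1 lower at ZT12 than at ZT0 with either treatment, while Gcgr stayed between 239 and 299 FPKM.

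Harvest time was the larger difference. Gavage was given just before lights off with either treatment, so livers at ZT0 and ZT12 also differed in time since gavage. Time of day and time since gavage cannot be told apart here. In a fit of all 12 livers, 6 of the 9 genes differed between ZT12 and ZT0 at an adjusted p under 0.05 (limma on log2(FPKM + 1), Benjamini-Hochberg over all genes tested), against 30.0% of all genes. Higher at ZT12 were 4 (Pik3r1, Akt1, Foxo1 and Foxo3; 15.9% of all genes were called higher), and lower were 2 (Irs1 and Irs2; 14.1% were called lower). The 6 calls held in each of the 18 or 19 alternatives that tested the gene. For 5 genes, Irs1, Pik3r1, Akt1, Foxo1 and Foxo3, the 6 values at ZT12 did not overlap the 6 at ZT0, as was the case for 13.3% of all genes.

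Among the receptors, neither passed the test. Insr, the insulin receptor, was at 9.50, 9.92 and 11.2 FPKM in Cntrl ZT0 and at 11.1, 11.98 and 13.2 FPKM in Cntrl ZT12, while with Libramed it was at 9.52, 12.6 and 9.99 FPKM at ZT0 and at 10.4, 12.1 and 11.4 FPKM at ZT12. The groups overlapped with either treatment. Its log2 fold change over both treatments was 0.15 (95% interval -0.02 to 0.32, limma adjusted p = 0.166), and it passed the threshold only without Libramed ZT0 replicate 2, the highest of its group (log2 fold change 0.21, adjusted p = 0.0444). Gcgr, the glucagon receptor, had group means of 263 ± 31.4 (Cntrl ZT0), 249 ± 5.15 (Cntrl ZT12), 244 ± 3.58 (Libramed ZT0) and 252 ± 8.01 FPKM (Libramed ZT12; SD, n = 3 each), and its log2 fold change over time was -0.01 with a 95% interval from -0.15 to 0.12.

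The adaptors Irs1 and Irs2 link the activated receptor to phosphoinositide 3-kinase, and both fell toward the evening. Irs1 (GENCODE vM21, GRCm38, chr1:82233101-82291416, minus strand) was at 2.72, 4.19 and 4.01 FPKM in Cntrl ZT0 and at 1.62, 2.29 and 2.61 FPKM in Cntrl ZT12. With Libramed it was at 3.61, 3.61 and 3.10 FPKM at ZT0 and at 1.82, 2.10 and 1.82 FPKM at ZT12. All 6 evening values were below all 6 morning values, the mean was 0.577 times the morning mean, and the log2 fold change was -0.58 ± 0.10 (SE; limma adjusted p = 0.00163, exact permutation p = 0.005, the smallest that 400 arrangements within treatment allow). Its fall passed the test in Libramed mice (log2 fold change -0.61, adjusted p = 0.00899), while in Cntrl mice the log2 fold change was -0.55 (adjusted p = 0.0954).

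Irs2 (chr8:10984681-11008458, minus strand) was the lowest of the 9 genes. It was at 1.36, 1.97 and 2.14 FPKM in Cntrl ZT0 and at 1.40, 1.06 and 1.32 FPKM in Cntrl ZT12, and these groups overlapped through the lowest morning value. With Libramed it was at 1.86, 1.66 and 2.06 FPKM at ZT0 and at 0.803, 0.446 and 1.08 FPKM at ZT12, with no overlap. Over both treatments the log2 fold change was -0.51 ± 0.10 (SE; limma adjusted p = 0.00383, exact permutation p = 0.01). Within Libramed it was -0.70 (adjusted p = 0.0242) and within Cntrl -0.31 (adjusted p = 0.184). The size depends on the pseudocount at this level: with 0.1 in place of 1 FPKM the log2 fold change was -0.85 over both treatments and -1.22 in Libramed mice. The lowest value, 0.446 FPKM, came from the shallowest library, Libramed ZT12 replicate 2, and without it the change over both treatments was -0.44.

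Markers of other cell types also differed over time, where 14.1% of all genes were called lower and 15.9% higher at ZT12. All 4 endothelial markers that were tested fell over both treatments. Clec4g fell by 0.76, Kdr by 0.46, Stab2 by 0.42 and Pecam1 by 0.39 on the log2 scale (limma adjusted p between 0.000771 and 0.0175). Of 3 stellate markers tested, Pdgfrb and Dcn fell (adjusted p = 0.001 and 0.0483), with sums of the list from 28.5 to 57.7 FPKM at ZT0 and from 21.1 to 42.4 FPKM at ZT12. Of 5 macrophage markers tested, Lyz2 fell (adjusted p = 0.0356). Of the fat list, Cfd rose by 1.83 on the log2 scale (adjusted p = 0.012), and in Cntrl mice the sum of the list was 2.85 to 7.97 FPKM at ZT0 and 11.5 to 42.8 FPKM at ZT12. With Libramed that sum was 0.351 to 4.99 FPKM at ZT0 and 2.74 to 11.2 FPKM at ZT12, while Lep and Retn were listed at 0 in all livers and Adipoq and Plin1 were at most 0.0492 and 0.0381 FPKM. Of the pancreas list, Cela1 fell by 0.57 (adjusted p = 0.0088), while Ins1, Ins2, Gcg and Cpa1 were listed at 0 in all livers. The part of other cell types in the values of the 9 genes was not tested, and in whole liver fewer cells of a type and less RNA per cell cannot be told apart.

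The sequences before the Irs1 and Irs2 start sites are shown because both genes fell and their windows share a motif. RefSeq promoters (GRCm38.p6, 250 bases before to 50 after each start) were held for 8 of the 9 genes in 13 windows, with none for Insr. Each was searched on both strands for an E-box (CACGTG, bound by clock and other bHLH factors), a FOXO core (TGTTTAC), a cAMP response element (TGACGTCA) and its short form (TGACG), a D-box (TTATGTAA), a ROR or REV-ERB element (TAGGTCA) and an SREBP element (TCACNCCAC). Among the windows of these genes, the E-box was in those of Irs1 and Irs2 alone, while 7.15% of all 32851 promoter windows hold one. It begins 115 bases before the RefSeq start of Irs1 and 44 bases before that of Irs2. The whole Irs2 window (chr8:11008880-11009179) lies before the GENCODE start of Irs2 at 11008458, so both sources differ in that start. The E-box lies in a run of 10 bases that both windows share, and they share no longer run. Another shared run, tgttttgctc, is as long, and how often windows share such runs was not counted. In the lines below, capitals mark the E-box, and the stretches, read 5′ to 3′ on the minus strand, are chr1:82291509-82291594 for Irs1 and chr8:11008930-11009013 for Irs2.
Irs1: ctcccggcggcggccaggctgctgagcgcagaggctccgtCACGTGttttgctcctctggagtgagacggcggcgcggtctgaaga
Irs2: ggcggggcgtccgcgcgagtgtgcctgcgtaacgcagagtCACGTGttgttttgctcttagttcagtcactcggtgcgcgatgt
In Irs1 the E-box overlaps a short cAMP element. That short form was in 5 of the 13 windows, of Irs1, Pik3r1, Akt2 (2 windows) and Foxo3, and in 20.8% of all windows. A match is a description of these letters only, and no binding was measured.

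Pik3r1 encodes the regulatory subunit that docks phosphoinositide 3-kinase on the adaptors, and it rose toward the evening. It was at 8.20, 7.23 and 8.57 FPKM in Cntrl ZT0 and at 13.4, 11.6 and 11.5 FPKM in Cntrl ZT12. With Libramed it was at 7.66, 7.37 and 8.00 FPKM at ZT0 and at 9.13, 12.8 and 12.7 FPKM at ZT12. All evening values exceeded all morning values, and the evening mean was 1.51 times the morning mean (log2 fold change 0.53 ± 0.08, SE; limma adjusted p = 0.000851, exact permutation p = 0.005). The rise passed the test in Cntrl (log2 fold change 0.55, adjusted p = 0.0203) and in Libramed mice (0.52, adjusted p = 0.0464).

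Of the AKT kinases, Akt1 rose and Akt2 did not. Akt1 was at 19.2, 18.4 and 18.1 FPKM in Cntrl ZT0 and at 19.3, 25.1 and 21.3 FPKM in Cntrl ZT12, so the lowest evening value was just above the highest morning value. With Libramed it was at 17.7, 18.2 and 18.8 FPKM at ZT0 and at 23.1, 23.0 and 24.7 FPKM at ZT12, further apart than in Cntrl. Over both treatments its log2 fold change was 0.29 ± 0.06 (SE; limma adjusted p = 0.00591), with 0.35 in Libramed (adjusted p = 0.0245) and 0.22 in Cntrl mice (adjusted p = 0.243). The difference between these changes, the interaction, was 0.14 (95% interval -0.14 to 0.41) and did not pass the test (limma adjusted p = 0.878). Akt2, the isoform best known for insulin action on glucose, was at 19.9, 17.8 and 17.8 FPKM in Cntrl ZT0, 16.7, 16.98 and 17.8 FPKM in Cntrl ZT12, 17.5, 17.6 and 19.3 FPKM in Libramed ZT0 and 17.3, 15.3 and 17.1 FPKM in Libramed ZT12. Its evening values lay below the morning values within each treatment, with a closest pair of 17.7643 and 17.7957 FPKM in Cntrl mice, but the log2 fold change of -0.11 did not pass the adjusted test (95% interval -0.23 to 0.00, limma adjusted p = 0.135; exact permutation p = 0.005), other than under quantile normalization (-0.14, adjusted p = 0.0464).

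Within each liver, the balance of both AKT isoforms shifted with time. The ratio of Akt2 to Akt1 was 0.994 ± 0.0351 in Cntrl ZT0 and 0.995 ± 0.0297 in Libramed ZT0, and it was 0.792 ± 0.101 in Cntrl ZT12 and 0.701 ± 0.0428 in Libramed ZT12 (SD, n = 3 each). Morning ratios lay between 0.968 and 1.03 and evening ratios between 0.664 and 0.865, with no overlap. The log2 ratio of FPKM + 1 was lower by 0.40 at ZT12 (difference -0.40, exact permutation of time within treatment, two-sided p = 0.005, the smallest that 400 arrangements allow, adjusted over 4 ratios p = 0.02). Akt1 was higher and Akt2 lower at ZT12 without overlap within each treatment, so the ratio had to separate there. Its p is therefore not separate evidence. The log2 difference does not depend on library scaling beyond the pseudocount, and it ranged from -0.43 to -0.35 when each library was left out.

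The other 3 ratios did not pass the test. Irs2 to Irs1 had means between 0.415 (Libramed ZT12) and 0.613 (Cntrl ZT12), with a log2 difference over time of 0.07 (exact permutation p = 0.6). Foxo1 to Foxo3 had group means from 1.59 to 1.81 and a log2 difference of 0.03 (exact permutation p = 0.83), which was 0.12 without Libramed ZT0 replicate 1, whose ratio of 2.49 stood above the other 11 (adjusted exact permutation p = 0.03). Insr to Gcgr had a log2 difference of 0.17 (exact permutation p = 0.185).

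**Figure D2:**
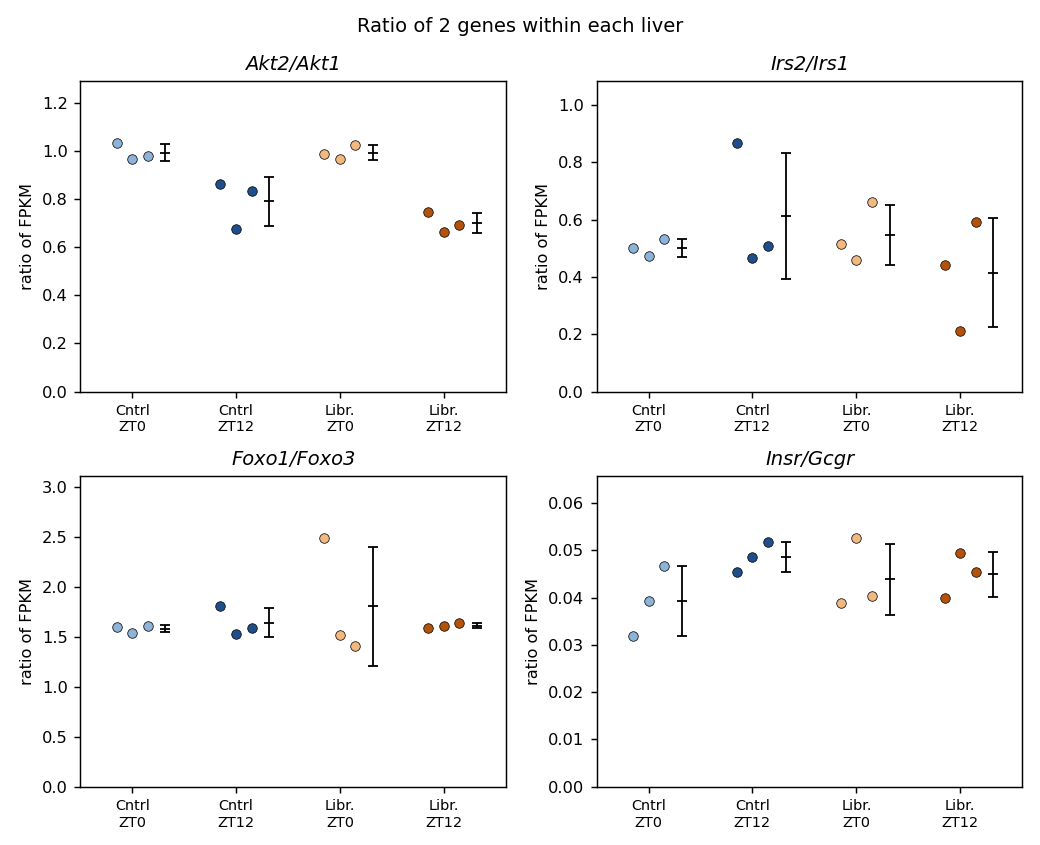
Ratio of FPKM of 2 genes within each liver (y axis, from 0), with 1 point per mouse and the mean ± SD of 3 mice beside each group. All 6 Akt2 to Akt1 ratios at ZT12 lay at or below 0.865, under the 6 ratios at ZT0 (0.968 or higher), while the groups of the other 3 ratios overlapped.

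The FOXO factors, which insulin holds inactive through AKT and which raise genes of glucose production when active, both rose toward the evening. Foxo1 was at 4.52, 5.10 and 4.64 FPKM in Cntrl ZT0 and at 7.68, 7.27 and 8.14 FPKM in Cntrl ZT12. With Libramed it was at 4.76, 5.47 and 4.58 FPKM at ZT0 and at 6.16, 9.004 and 9.45 FPKM at ZT12. No evening value overlapped the morning, and the evening mean was 1.64 times the morning mean (log2 fold change 0.61 ± 0.09, SE; limma adjusted p = 0.000644, exact permutation p = 0.005).

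Foxo3 was at 2.83, 3.30 and 2.88 FPKM in Cntrl ZT0 and at 4.24, 4.74 and 5.13 FPKM in Cntrl ZT12. With Libramed it was at 1.91, 3.58 and 3.26 FPKM at ZT0 and at 3.87, 5.59 and 5.76 FPKM at ZT12. Its values did not overlap over time either, and its evening mean was 1.65 times the morning mean (log2 fold change 0.58 ± 0.12, SE; limma adjusted p = 0.00439). In Cntrl mice the rises of Foxo1 (0.60, adjusted p = 0.0102) and Foxo3 (0.51, adjusted p = 0.0246) passed the test. In Libramed mice that of Foxo1 did (0.62, adjusted p = 0.0447), while Foxo3 had a log2 fold change of 0.64 (adjusted p = 0.0829). Libramed ZT12 replicate 1 had the lowest value of its group for Pik3r1, Foxo1 and Foxo3, and also for Insr (10.4 FPKM). Of 6 hepatocyte markers tested, Hnf4a alone passed the test over time (log2 fold change 0.31, adjusted p = 0.00577). The log2 fold changes of the others were 0.17 for Asgr1, -0.01 for Cps1, -0.04 for Ttr, -0.14 for Apob and -0.14 for Apoa1. The part of these markers in the values of the 9 genes was not tested.

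A FOXO core was found in 1 of the 13 promoter windows, the first of Akt1, and in 3.65% of all windows. The other Akt1 window held none, no binding was measured, and whether FOXO factors act on Akt1 was not tested. The FOXO core begins 161 bases before the start site of the first window. The stretch at chr12:112674999-112675085 (minus strand, GRCm38.p6, RefSeq) reads as follows, with the FOXO core in capitals.
Akt1: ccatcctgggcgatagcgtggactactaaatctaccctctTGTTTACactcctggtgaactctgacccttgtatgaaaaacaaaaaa
The windows of Foxo1 and Gcgr held none of the motifs searched, and no D-box, ROR or REV-ERB element, SREBP element or full cAMP response element was in any of the 13 windows.

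Counted within each treatment, the test was passed by 3 genes in Cntrl mice (Pik3r1, Foxo1 and Foxo3; 10.4% of all genes) and by 5 in Libramed mice (Irs1, Irs2, Pik3r1, Akt1 and Foxo1; 12.4% of all genes). Values at ZT12 and ZT0 did not overlap for 6 of the 9 genes in Cntrl (33.2% of all genes) and 7 in Libramed mice (34.9%), and for 6 they did not overlap in the same direction in both (17.6%). The 2 counts of calls do not show that the treatments differed, since the test of that difference, the interaction, was passed by none. The counts within a treatment depend on single libraries: in Cntrl mice 0 genes passed without ZT0 replicate 3 or ZT12 replicate 3 and 1 without ZT12 replicate 2. In Libramed mice, 1 gene, Irs1, passed without any one of the ZT0 replicates or without ZT12 replicate 2, and 2 passed without ZT12 replicate 3.

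**Figure D3:**
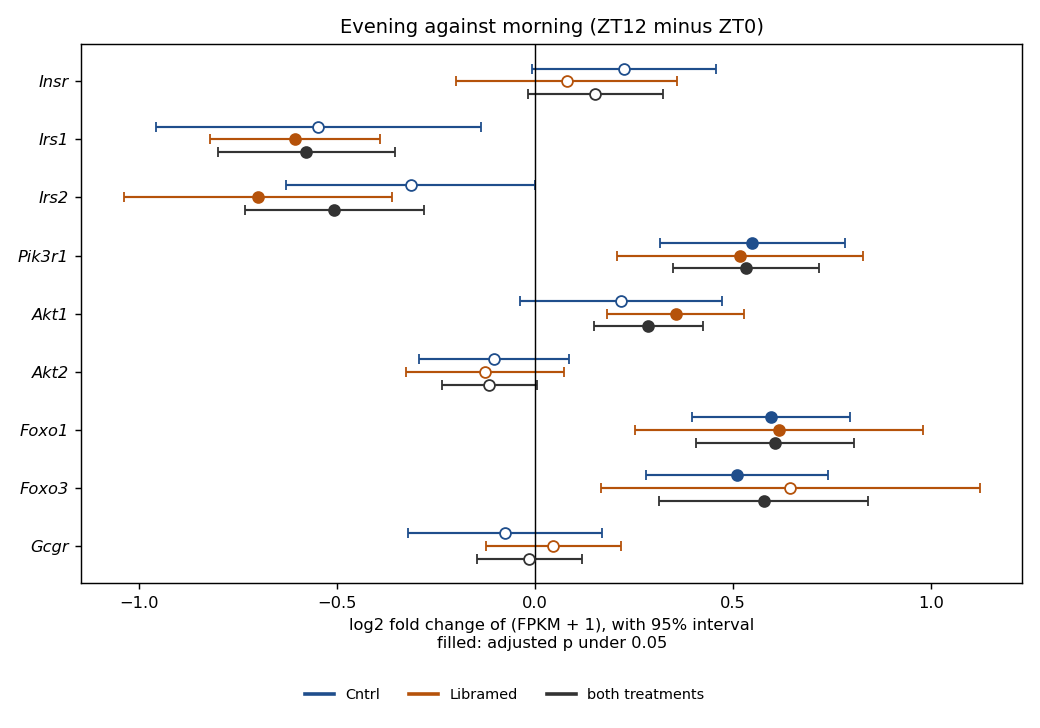
Log2 fold change of FPKM + 1 at ZT12 against ZT0 for each gene (x axis), with 95% intervals, in Cntrl mice, Libramed mice and both treatments (3, 3 and 6 mice per time), where filled points have an adjusted p under 0.05. The 6 called genes lay on the same side of 0 in both treatments, with Irs1 and Irs2 below 0 and Pik3r1, Akt1, Foxo1 and Foxo3 above it.

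Libramed against Cntrl gave no call for any of the 9 genes, at ZT0, at ZT12, over both times or in the interaction with time (limma, and Cyber-T at each time). No gene of the 9806 passed an adjusted p of 0.05 in limma in these comparisons (0%), and Cyber-T called 77 genes at ZT0 and 28 at ZT12. In limma, unadjusted p values under 0.05 were reached by 9.23% of all genes at ZT0, 6.74% at ZT12, 10.5% over both times and 6.63% for the interaction. Of the 9 genes, unadjusted p values under 0.05 were reached by none at ZT0, over both times or in the interaction, and by 1 at ZT12, Irs2. For Irs2 at ZT12, the Libramed values (0.803, 0.446 and 1.08 FPKM) had a mean of 0.776 and the Cntrl values (1.40, 1.06 and 1.32 FPKM) a mean of 1.26 FPKM, and the groups overlapped between 1.06 and 1.08 FPKM. Its log2 difference was -0.36 (95% interval -0.71 to -0.02, p = 0.0423 and adjusted p = 0.729 in limma, exact permutation p = 0.2, with 0.1 the smallest that 3 mice against 3 allow). Without Libramed ZT12 replicate 2 the difference was -0.22, with an unadjusted p above 0.05, while with a pseudocount of 0.1 FPKM it was -0.70. The interaction of Irs2, the Libramed effect at ZT12 minus that at ZT0, was -0.39 (95% interval -0.84 to 0.07, limma adjusted p = 0.784), and -0.74 with that pseudocount.

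Over both times, the 95% interval of the log2 difference between Libramed and Cntrl was -0.18 to 0.16 for Insr, -0.30 to 0.14 for Irs1, -0.40 to 0.06 for Irs2 and -0.25 to 0.12 for Pik3r1. It was -0.10 to 0.18 for Akt1, -0.16 to 0.08 for Akt2, -0.15 to 0.25 for Foxo1, -0.25 to 0.27 for Foxo3 and -0.17 to 0.09 for Gcgr. The widest interaction interval was that of Foxo3, from -0.39 to 0.66.

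**Figure D4:**
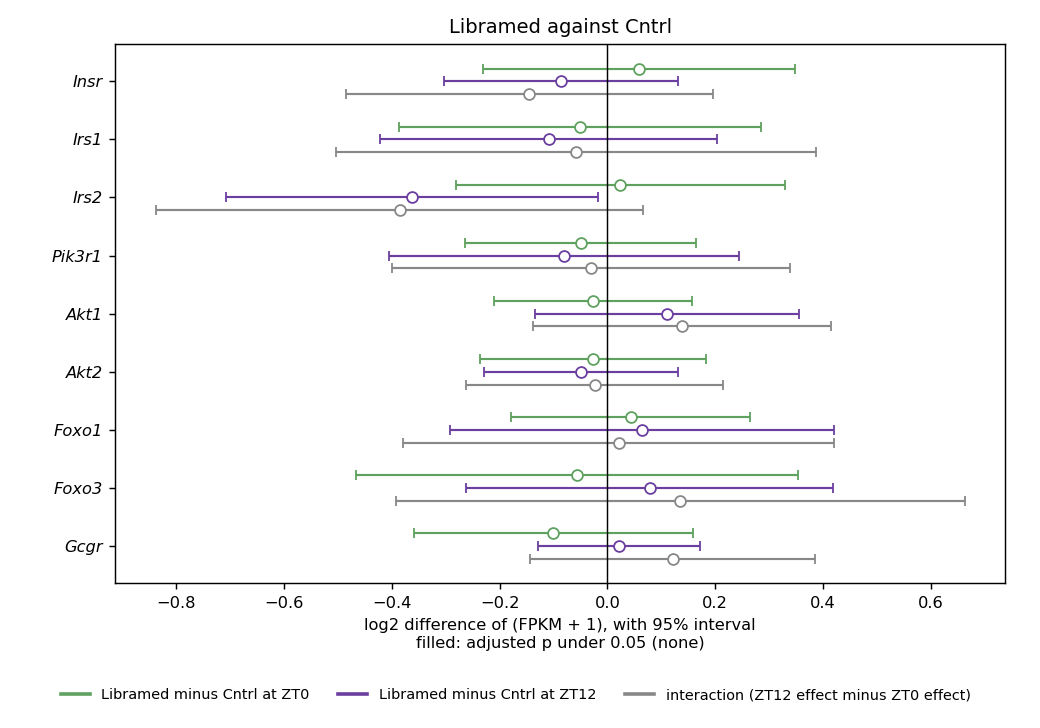
Log2 difference of FPKM + 1 between Libramed and Cntrl at ZT0 and at ZT12, and the interaction (x axis), with 95% intervals from 3 mice per group, for each gene. All points are open, since none had an adjusted p under 0.05, and the interval of Irs2 at ZT12 (-0.71 to -0.02) was the only one that did not include 0.

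Other components of the insulin cascade were called over time about as often as genes in general. Of 38 listed kinases, phosphatases, adaptors and regulators, 33 were tested over both treatments: 4 rose and 7 fell toward the evening, where 15.9% of all genes rose and 14.1% fell, with a median log2 fold change of -0.01 beside 0.01 over all genes. The 11 called of 33 were near the share called among all genes (30.0%). Pde3b, the phosphodiesterase through which insulin lowers cAMP, rose from 10.1 ± 1.40 to 14.4 ± 0.378 FPKM in Cntrl and from 9.14 ± 0.512 to 12.6 ± 0.783 FPKM in Libramed mice (SD, n = 3 each; log2 fold change over both 0.45, limma adjusted p = 0.000628). Gab1, a docking protein, also rose (0.40, adjusted p = 0.00452), and the other two that rose, named after their values were seen, were Inppl1 (0.26), a lipid phosphatase, and Mtor (0.25), a growth kinase. Shc1, an adaptor toward the MAP kinase pathway, fell by 0.25 on the log2 scale (adjusted p = 0.00196), and Phlpp1, a phosphatase of AKT, fell by 0.27 (adjusted p = 0.00865). The change of Shc1 was -0.37 in Cntrl (limma adjusted p = 0.029) and -0.13 in Libramed mice (adjusted p = 0.295). Its interaction of 0.24 did not pass the adjusted test (adjusted p = 0.665). Phlpp1 was at 3.86 and 3.78 FPKM in Cntrl at ZT0 and ZT12 and at 4.56 and 2.88 FPKM in Libramed mice, with an interaction of -0.50 that did not pass the adjusted test (limma adjusted p = 0.519).

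Of the same cascade list, 0 genes passed an adjusted test of Libramed against Cntrl, and the median log2 difference over both times was -0.01 beside -0.02 over all genes. At ZT12, 4 of the 33 had an unadjusted limma p under 0.05 and were lower with Libramed (Phlpp1, Ceacam1, Pde3b and Pdpk1), and 0 were higher. Among all 9806 genes, 360 were lower and 301 higher by that measure. The smallest p values over both times belonged to Ceacam1, which promotes insulin clearance by the liver (log2 difference -0.16, limma adjusted p = 0.372), and Pdpk1, the kinase that activates AKT (-0.19, adjusted p = 0.395).

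Of 24 listed components of the glucagon and cAMP arm, 23 were in the table and 17 were tested: 6 rose and 2 fell toward the evening (15.9% and 14.1% of all genes), with a median log2 fold change of 0.09 beside 0.01 over all genes. Sik1, a kinase induced by cAMP that restrains gluconeogenic genes, rose from 3.53 ± 0.755 to 6.75 ± 1.92 FPKM in Cntrl and from 2.79 ± 1.13 to 7.27 ± 0.599 FPKM in Libramed mice (SD, n = 3 each; log2 fold change over both 0.97, limma adjusted p = 0.00119). Prkacb, a catalytic subunit of protein kinase A, rose by 0.39 (adjusted p = 0.00154), Sik3 by 0.24 (adjusted p = 0.00524) and Rapgef4, a cAMP-activated exchange factor, by 0.72 (adjusted p = 0.0141). Those that fell were Arrb2, an arrestin (log2 fold change -0.21, adjusted p = 0.0443), and Pde4b, a phosphodiesterase named after its values were seen (-0.53, adjusted p = 0.0339). The change of Pde4b was -0.16 in Cntrl (limma adjusted p = 0.686) and -0.91 in Libramed mice (adjusted p = 0.0413). Its interaction of -0.75 did not pass the adjusted test (adjusted p = 0.751). Between treatments over both times, 0 of the 17 passed the adjusted test, with Arrb2 at a log2 difference of 0.20 (adjusted p = 0.382) and Prkacb at -0.15 (adjusted p = 0.481).

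The listed genes that FOXO1 raises and insulin lowers moved in both directions. Of 13 listed, 10 were tested: 3 rose (G6pc, Pck1, Klf15) and 3 fell (Pdk4, Sesn1, Sesn3), against 15.9% and 14.1% of all genes, with a median log2 fold change of 0.07 beside 0.01 over all genes. G6pc, which encodes the last enzyme of glucose release, was at 115 ± 50.6 FPKM in Cntrl ZT0 and 229 ± 58.9 FPKM in Cntrl ZT12, and at 80.8 ± 24.7 and 285 ± 41.6 FPKM with Libramed (SD, n = 3 each; log2 fold change over both 1.46, limma adjusted p = 0.00118). Pck1, which encodes the enzyme that commits carbon to gluconeogenesis, had a log2 fold change of 1.26 (adjusted p = 0.00362). It was 0.74 in Cntrl (limma adjusted p = 0.279) and 1.79 in Libramed mice (adjusted p = 0.00638). That of Klf15, a fasting-induced factor, was 0.36 (adjusted p = 0.00783), with 0.09 in Cntrl (adjusted p = 0.598) and 0.64 in Libramed mice (adjusted p = 0.0253). Neither interaction passed the adjusted test (Pck1 1.06, adjusted p = 0.755, Klf15 0.55, adjusted p = 0.56). Sesn1 and Sesn3, stress proteins that restrain mTOR signalling, fell by 0.43 and 0.29 on the log2 scale (adjusted p = 0.00931 and 0.0184). Between treatments, 0 of the 10 passed, and the smallest p over both times were those of Sesn3 (log2 difference 0.12, adjusted p = 0.621) and Apoc3, an apolipoprotein gene (0.15, adjusted p = 0.664).

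The genes that insulin raises were higher on average with Libramed at ZT12, but none passed the adjusted test in limma. All 8 listed genes were tested, and toward the evening 2 of the 8 rose, where 15.9% of all genes did: Thrsp, a lipogenic protein (207 to 2009 FPKM, log2 fold change 3.29, limma adjusted p = 4.13e-05), and Mlxipl, which encodes ChREBP (0.25, adjusted p = 0.0371). The change of Mlxipl was 0.09 in Cntrl (limma adjusted p = 0.614) and 0.405 in Libramed mice (adjusted p = 0.0693), with an interaction of 0.31 (adjusted p = 0.764). Srebf1 (0.68, adjusted p = 0.0626) did not pass. At ZT12, all 8 were higher on average with Libramed, with a median log2 difference of 0.93 beside -0.01 over all genes, and 5 had an unadjusted p under 0.05, as had 3.07% of all genes in that direction. Srebf1, which encodes the lipogenic factor SREBP-1, was at 96.7 ± 29.7 FPKM in Cntrl ZT12 and 186 ± 48.7 FPKM in Libramed ZT12 (SD, n = 3 each; log2 difference 0.94, limma adjusted p = 0.729). In Cyber-T, Srebf1 was called at ZT12 (adjusted p = 0.0441). Over both times, Mlxipl had a log2 difference of 0.19 (limma adjusted p = 0.458). At ZT0 the median log2 difference of the 8 genes was 0.23, and none had an unadjusted p under 0.05.

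**Figure D5:**
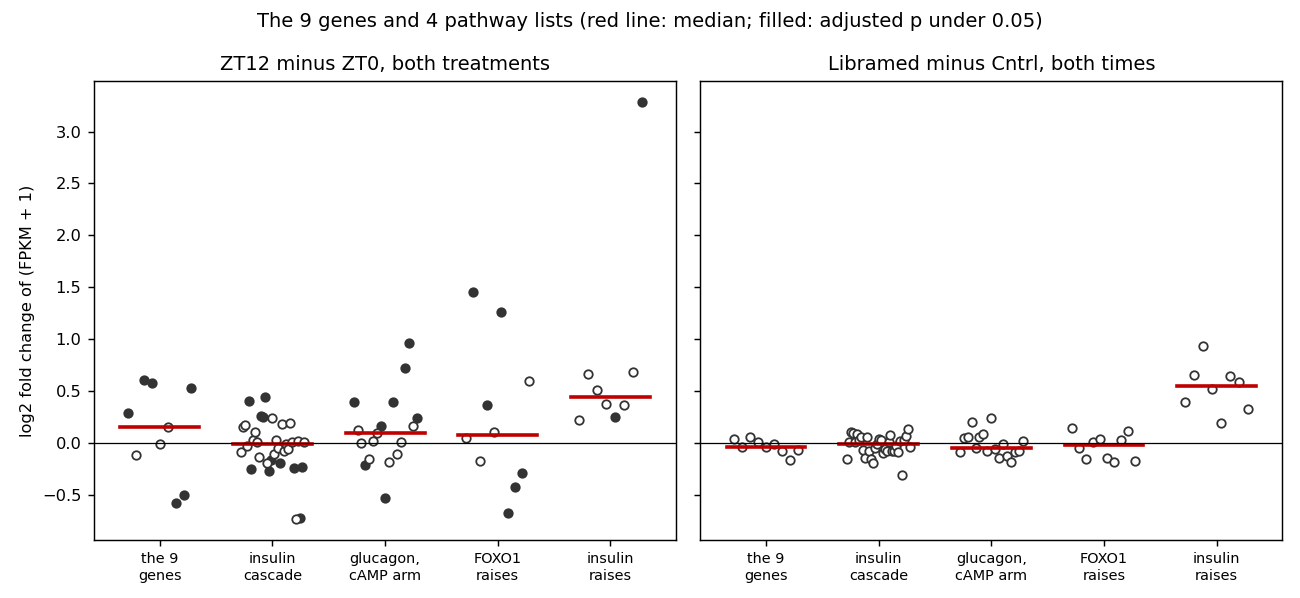
Log2 fold change of FPKM + 1 (y axis) of the 9 genes and the tested genes of 4 pathway lists, 1 point per gene, with medians as red lines, for ZT12 against ZT0 over both treatments (left) and Libramed against Cntrl over both times (right), where filled points have an adjusted p under 0.05. Filled points occur on the left panel only, on both sides of 0 for the cascade, and the 8 insulin-raised genes lie above 0 in both panels.

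Genes whose profile over the 12 livers was most like that of each called gene are given as a description. By Pearson's r of log2(FPKM + 1) over 12 livers, they were Eps8l2 (0.968), Caprin1 (0.968) and Lrp5 (0.966) for Irs1, and Hbp1 (0.936), Cdkn1b (0.933) and Magi3 (0.926) for Irs2. They were Mpv17l (0.958), Chn2 (0.954) and Zkscan7 (0.953) for Pik3r1, and Agpat6 (0.960) and Prodh (0.936) for Akt1. For Foxo1 they were Chd7 (0.973), Aim1 (0.967) and Tns1 (0.965), and for Foxo3 Susd6 (0.958), BC005537 (0.951) and March5 (0.941).

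Annotated genes overlap 7 of the 9 (GENCODE vM21). Genes on the other strand overlap Insr (Gm16180, Vmn2r-ps88), Irs1 (Gm9747), Irs2 (9530052E02Rik), Foxo1 (Gm20402) and Gcgr (Gm11789), and genes on the same strand overlap Pik3r1 (Gm36638), Akt1 (Mir6939) and Foxo1 (Gm38034). Whether reads were counted by strand is not given in the sources used here, so reads of these pairs cannot be told apart. Akt2 and Foxo3 have no annotated overlap.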

How the data were processed

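Liver RNA was measured by RNA-seq in 12 mice, 3 per group, grouped by the sample labels. The authors deposited a single file that gives FPKM by gene for each liver. The methods describe stranded libraries, alignment to mm10 and known splice junctions with ELAND and only unique matches kept, while the submitters' notes name TopHat, Cuffnorm, mm10 and GRCm38, and the labels a TruSeq v2 kit; which made the deposited table is not given in the sources used here. Unique matching or sharing of reads could lower genes with near-identical copies. The table has 24138 lines, of which 289 repeat a symbol and were dropped in favour of the line with the highest mean. Depth is known only relative between libraries, so no counting error is given and the spread of 3 mice sets the precision.

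Tests were run on log2(FPKM + 1) of 9806 genes, those averaging 1 FPKM or more over all livers, with limma 3.58.1 in R 4.3.3 (trend, two-sided, Benjamini-Hochberg over all genes tested, threshold 0.05). Comparisons of 2 groups used their 6 samples, and the effects over both strata and the interaction used all 12. Single genes and ratios were also tested by exact permutation, within strata where both entered. The limma step was tested on simulated data.

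The genes, the 4 pathway lists, the marker lists and the motifs were chosen with earlier results of these data known, and support nothing independently. Named list genes are the 4 with the smallest p over time and the 2 over treatment per list, and similar genes the 3 with the highest r, some of which are not reported here. Positions are from GENCODE vM21, sequences from RefSeq. The labels number the replicates alike in each group, but same-numbered samples did not deviate together (correlation of deviations -0.28 to 0.26), so samples were not paired. Alternatives were a pseudocount of 0.1, no minimum, a minimum of 5 FPKM, no trend, median-ratio and quantile scaling, Cyber-T (window 101 genes, prior weight 10), the replicate block, 1 fit of all 12 samples and leaving out each library. Protein sequences were not used here.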

Additional observations from a re-analysis of the deposited data

How the results depend on the processing

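All 14 called values of the 9 genes kept their direction in the 228 alternative fits that tested them, and of 804 alternative fits of uncalled values, 54 had the other sign and 8 passed the adjusted threshold. Over both treatments, the 6 genes called over time became 3 with a minimum of 5 FPKM, which left Irs1, Irs2 and Foxo3 untested, and 6 to 7 when each library was left out. In Cntrl mice, the 3 genes called over time became 0 to 3 when each library was left out, and the 7 called list genes became 3 with no minimum, 11 with Cyber-T and 0 to 7 without 1 library. In Libramed mice, the 5 genes became 2 with no minimum, 3 with a minimum of 5 FPKM and 1 to 4 without 1 library, and the 14 list genes became 6 with no minimum and 6 to 11 without 1 library (6 without any ZT0 replicate or ZT12 replicate 2, 7 without ZT12 replicate 3). In Cntrl mice, list genes were 4 without ZT0 replicate 1, 0 without ZT0 replicate 3, ZT12 replicate 1 or ZT12 replicate 2, and 1 without ZT12 replicate 3. Cyber-T called 2 list genes between treatments at ZT12, against 0. With 1 library left out, fewer samples enter the fit. Otherwise the cause was not tested.

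The replicate number had no pairing in the data. Each number was checked in each comparison of 2 groups, and in 2 of these 12 checks a sample correlated best with its own number. With that number as a block, 0 genes of the 9 and 0 list genes were called over time in Cntrl mice, and 3 and 7 in Libramed mice. The block changed no call of the 9 genes over both treatments or between treatments.

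The log2 difference of Irs2 to Irs1 over time turned to -0.087 with a pseudocount of 0.1, ranged from -0.018 to 0.16 without 1 library and was below 0 without Cntrl ZT12 replicate 1 or Libramed ZT12 replicate 3. That of Foxo1 to Foxo3 turned to -0.024 with that pseudocount, ranged from -0.029 to 0.12 without 1 library and was below 0 without Libramed ZT0 replicate 2 or 3. Scaling moved the median of all genes by less than the 0.1 log2 that would call for a correction. Without counts, the depth behind Irs2, near 1 FPKM, cannot be stated.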
